A study of Mus musculus with 143 samples.

Results

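Dmkn (dermokine), Sbsn (suprabasin) and Krtdap (keratinocyte differentiation associated protein) lie next to each other on mouse chromosome 7, and Mrgprg, a receptor gene of the Mas-related family, lies elsewhere on the same chromosome. These 4 of the 53468 genes in the count table were chosen on measured values, for high levels in adipose stem cells (ASC) of the DPP4+ gate from inguinal fat, with a neighbour at the locus added. Their levels by gate in inguinal fat and by depot among DPP4+ cells are therefore given as a description with no test. Sex differences, the gate contrast in perigonadal fat and the variation between mice were outside the rule of choice and were tested. Earlier results of these data were known when the genes were chosen, so these tests are not wholly independent of the choice.

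The mice were wild-type C57BL6/J animals aged 18 weeks, 8 males and 8 females, on chow, with no treatment other than a short fast before termination that all groups shared. ASC, which can become fat cells, were sorted from inguinal (iWAT) and perigonadal (pgWAT) white adipose tissue as cells lacking CD45 and CD31 and carrying CD34, and were split by the surface protein DPP4. The 8 groups were iWAT or pgWAT, DPP4+ or DPP4-, female or male, with 7 mice in each and 8 in the male iWAT DPP4- group. RNA came from 5000 sorted cells per sample, about 300 of which went into each Smart-seq2 reaction, and 143 libraries were summed to 57 samples of 1 mouse, depot and gate. These are bulk samples of a gate, so fewer cells of a type and less RNA per cell cannot be told apart.

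Sample totals ranged from 545885 to 4029915 counts, and in the iWAT DPP4+ groups from 1933782 to 3980586 in females and from 2446203 to 3691426 in males. Dpp4 itself had medians of 330.2 to 597 counts per 1000000 counts of the sample (CPM) in the DPP4+ groups and 7.41 to 17.1 in the DPP4- groups, and the fibroblast genes Dcn and Pdgfra were present in every sample. The female iWAT DPP4- samples also held mammary epithelial RNA, with Krt8 at 79.2 to 4228 CPM and Epcam at 15.1 to 1044. Pecam1, which encodes CD31, stood at 307 CPM in the iWAT DPP4+ sample of male mouse 1 and at 36.0 or less in the other 13 iWAT DPP4+ samples.

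Dermokine, suprabasin and the Krtdap product are secreted proteins best known from the upper layers of the epidermis, where keratinocytes switch on a program of barrier genes as they mature. Mas-related receptors are G protein-coupled receptors best known from sensory neurons and mast cells, where some of them respond to itch-evoking ligands. DPP4+ ASC are regarded as interstitial progenitors that share many genes with fibroblasts of connective tissue sheaths.

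On GRCm38, Sbsn (ENSMUSG00000046056) spans positions 30751471 to 30756134 of chromosome 7, Dmkn (ENSMUSG00000060962) positions 30763756 to 30781063 and Krtdap (ENSMUSG00000074199) positions 30787896 to 30791097, all protein-coding and on the plus strand. The 3 genes fit within 39.6 kb, with gaps of 7.62 and 6.83 kb between them. Mrgprg (ENSMUSG00000050276) lies at positions 143763710 to 143766993 on the minus strand. A noncoding gene named Tmem147os (ENSMUSG00000109224) overlaps Sbsn on the same strand, and its median was 0 to 2.81 CPM in the 8 groups, so reads in the overlap cannot be assigned to one gene with certainty. The 250 bases before the RefSeq start of each gene (GRCm38.p6) are printed because the 3 neighbours varied together between mice, as described further on, whereas Mrgprg did not. Capitals mark TGANTCA, a wider pattern than the core letters of AP-1 sites, TGA(C/G)TCA. The pattern reads the same on both strands, and each line runs 5' to 3' on the strand of its gene:
Sbsn, chr7:30751221-30751470, plus strand: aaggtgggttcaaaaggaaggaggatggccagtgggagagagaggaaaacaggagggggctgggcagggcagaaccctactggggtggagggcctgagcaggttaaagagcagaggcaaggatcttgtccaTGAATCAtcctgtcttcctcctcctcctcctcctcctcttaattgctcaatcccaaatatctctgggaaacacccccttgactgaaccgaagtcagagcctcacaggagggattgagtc
Dmkn, chr7:30763506-30763755, plus strand: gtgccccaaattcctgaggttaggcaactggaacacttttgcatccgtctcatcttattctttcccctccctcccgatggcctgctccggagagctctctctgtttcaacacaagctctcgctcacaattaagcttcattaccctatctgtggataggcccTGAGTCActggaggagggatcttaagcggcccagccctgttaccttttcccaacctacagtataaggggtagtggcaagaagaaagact
Krtdap, chr7:30787655-30787904, plus strand: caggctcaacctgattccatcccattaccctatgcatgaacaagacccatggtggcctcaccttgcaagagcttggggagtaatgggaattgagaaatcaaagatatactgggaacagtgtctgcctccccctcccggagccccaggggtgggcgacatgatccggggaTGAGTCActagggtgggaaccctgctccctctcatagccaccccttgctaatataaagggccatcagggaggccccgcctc
Mrgprg, chr7:143766994-143767243, minus strand: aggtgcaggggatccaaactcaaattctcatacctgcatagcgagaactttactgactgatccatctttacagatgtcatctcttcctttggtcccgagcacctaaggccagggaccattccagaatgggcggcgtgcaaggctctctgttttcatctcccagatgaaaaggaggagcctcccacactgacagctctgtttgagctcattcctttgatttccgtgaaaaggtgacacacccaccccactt

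TGANTCA occurred once in the upstream window of each of the 3 neighbours, with its first base 119 bases before the start of Sbsn, 89 before that of Dmkn and 81 before that of Krtdap. The Sbsn copy is TGAATCA, which lies outside the AP-1 core TGA(C/G)TCA, whereas the Dmkn and Krtdap copies are TGAGTCA, within it. An internal RefSeq start of Dmkn also had it, 82 bases upstream, and a further copy crossed the start of Sbsn, beginning 6 bases before it. The Mrgprg window had none. Among all 32851 windows of the same length, 6.75% held TGANTCA. The other motifs, searched on both strands and overlapping no TGANTCA copy in these windows, were the TATA box (TATAAA, in 12.4% of all windows), the CCAAT box (CCAAT, in 33.8%) and the GC box (GGGCGG, in 32.7%). TATAAA occurred 30 bases before the start of Krtdap and GGGCGG 123 bases before that of Mrgprg. The TGANTCA motif was picked after the sequences had been seen, and a match is only a description of the letters.

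Counts of all 4 genes came almost entirely from DPP4+ samples, and those groups are described first. Of all counts in the 57 samples, DPP4+ samples held 98.7% for Dmkn, 96.1% for Sbsn, 96.4% for Krtdap and 98.9% for Mrgprg. The iWAT DPP4+ samples alone held 85.7%, 70.7%, 71.5% and 89.5%.

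Dmkn ranged from 36.5 to 284 CPM in male iWAT DPP4+ samples, with a median of 201 (mean 175 ± 84.5, SD, n = 7). The female iWAT DPP4+ samples ranged from 16.2 to 64.0 with a median of 31.5 (mean 38.4 ± 17.8, SD, n = 7). Of the 7 males, 6 lay above the highest female, and mouse 1 was the exception at 36.5 CPM. In pgWAT DPP4+ samples Dmkn ranged from 19.1 to 43.9 CPM in males (median 24.0) and from 12.0 to 24.9 in females (median 15.2). Every DPP4+ sample exceeded every DPP4- sample, whose medians were 0.562 to 1.67 CPM and whose highest value was 10.4. Neighbouring DPP4+ groups in this order overlapped in range.

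Sbsn ranged from 108 to 322 CPM in male iWAT DPP4+ samples (median 300.4, mean 267 ± 77.8, SD, n = 7) and from 53.4 to 126 in the females (median 68.3, mean 80.1 ± 26.5, SD, n = 7). Here too 6 of 7 males lay above the highest female, with mouse 1 the lowest male. In pgWAT DPP4+ samples it ranged from 48.1 to 132 CPM in males (median 101) and from 66.9 to 80.6 in females (median 73.9). The female iWAT and the pgWAT DPP4+ groups thus overlapped, and the male iWAT group stood above them except for its lowest sample. The DPP4- groups had medians of 3.53 to 9.24 CPM and a highest value of 25.4, under all DPP4+ samples.

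Krtdap was the least abundant of the 4 and ranged from 8.04 to 61.0 CPM in male iWAT DPP4+ samples (median 24.4, mean 29.3 ± 16.7, SD, n = 7). The females ranged from 1.03 to 13.5 (median 4.02, mean 5.80 ± 4.92, SD, n = 7), and 6 of 7 males lay above the highest of them. In pgWAT DPP4+ samples the male range was 5.21 to 21.7 CPM (median 10.6) and the female range 4.21 to 7.69 (median 5.76). All DPP4+ groups overlapped with their neighbours in this order. In DPP4- samples the medians were 0 to 0.589 CPM, and the highest value was 7.74. The female iWAT DPP4- group held 1 Krtdap count in its 7 samples together.

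Mrgprg ranged from 192 to 891 CPM in male iWAT DPP4+ samples (median 434, mean 427 ± 254, SD, n = 7). The females ranged from 34.0 to 520 (median 71.4, mean 174 ± 188, SD, n = 7), and 2 of 7 males lay above the highest of them. Female mice 17 and 20, at 357 and 520 CPM, fell within the male range and the other 5 females, at 34.0 to 107, under it. In pgWAT DPP4+ samples the range was 7.82 to 82.1 CPM in males (median 29.7) and 15.9 to 171 in females (median 27.4). The male iWAT DPP4- group had the highest DPP4- levels, from 0.957 to 13.7 CPM (median 7.33), whereas no sample of the other DPP4- groups exceeded 5.37.

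Per kilobase of annotated exon, Mrgprg was the most abundant of the 4 in iWAT DPP4+ cells. In males its median was 218 CPM per kb, against 91.8 for Dmkn, 82.9 for Sbsn and 35.9 for Krtdap. In females the medians were 35.9 for Mrgprg, 18.9 for Sbsn, 14.4 for Dmkn and 5.92 for Krtdap. The exon lengths behind these values were 1990, 2192, 3625 and 679 bases for Mrgprg, Dmkn, Sbsn and Krtdap, and annotated transcripts of Dmkn alone run from 662 to 2063 bases, so the scale depends on which transcripts are made.

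**Figure D1:**
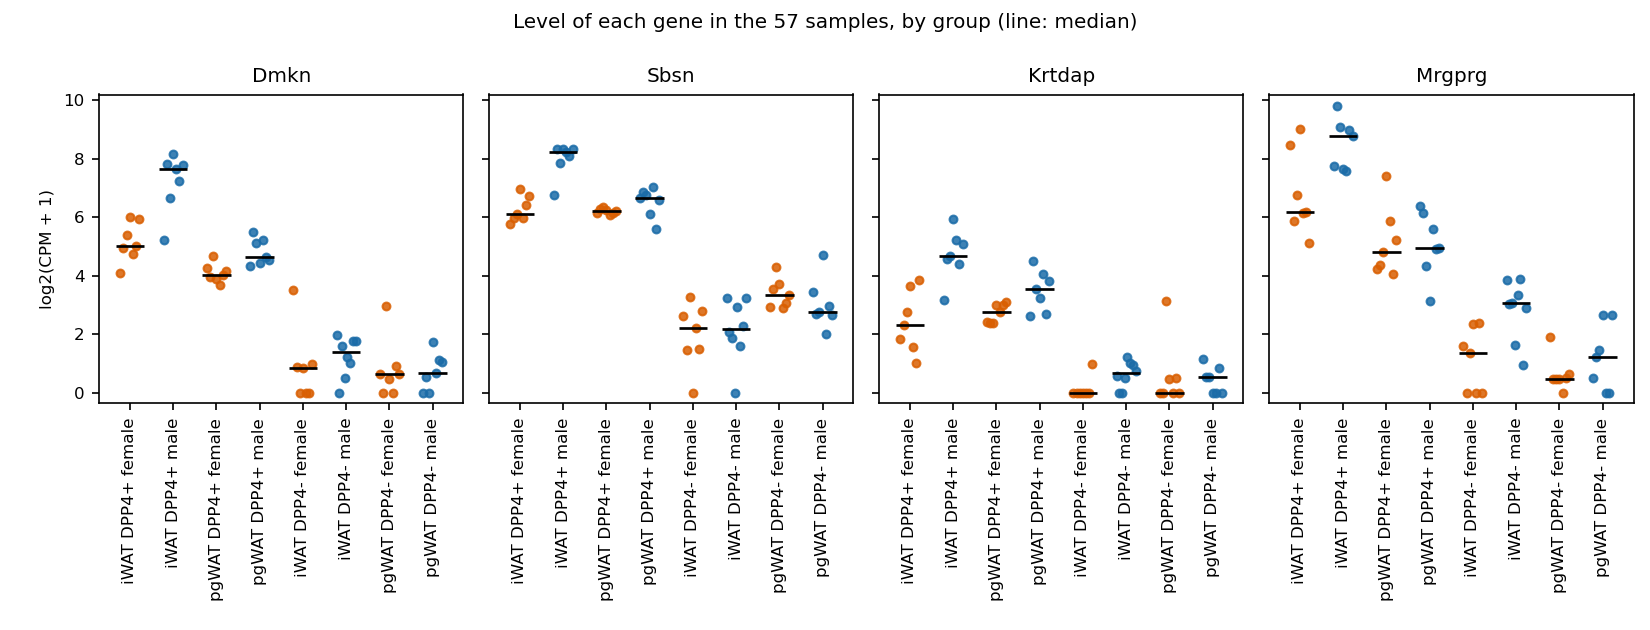
Level of each gene in the 57 samples on a log2(CPM + 1) axis, by group, with 1 point per mouse, females in orange and males in blue, and a line at the group median. All 4 genes are high in the DPP4+ groups, and the male iWAT DPP4+ group has the highest median, from 24.4 CPM for Krtdap to 434 CPM for Mrgprg.

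In mice with both depots in the DPP4+ gate, the depots can be set side by side within the animal, as a description. All 6 such males had more of each gene in iWAT than in pgWAT, with median ratios of 5.88 for Dmkn, 2.62 for Sbsn, 2.38 for Krtdap and 9.06 for Mrgprg. Among the 6 females, iWAT was the higher depot in 5 for Dmkn (median ratio 1.97) and in 6 for Mrgprg (2.97), but in only 2 for Sbsn (0.889) and in 2 for Krtdap (0.776). The fitted depot differences over both sexes were 2.13, 0.99, 0.94 and 2.82 on the log2 scale for Dmkn, Sbsn, Krtdap and Mrgprg, and 1.84, 0.84, 0.69 and 2.52 with the mouse as a replicate block. The fitted gate differences in iWAT were 5.87, 5.27, 5.22 and 5.94.

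The gate contrast in pgWAT asks whether the 4 genes mark the DPP4+ gate in a depot that the rule of choice did not name. Dmkn ranged from 12.0 to 43.9 CPM in the 14 DPP4+ samples (median 19.9) and from 0 to 6.93 in the 14 DPP4- samples (median 0.570). It was higher in DPP4+ samples by 4.25 ± 0.416 (SE) on the log2 scale in edgeR's quasi-likelihood test (adjusted p = 7.1e-10). Sbsn ranged from 48.1 to 132 CPM against 3.04 to 25.4 (medians 76.2 and 7.14) and was higher by 3.11 ± 0.218 (adjusted p = 2.2e-13). The groups of both genes did not overlap.

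Mrgprg in pgWAT likewise did not overlap between the gates, with 7.82 to 171 CPM in DPP4+ samples (median 29.6) and 0 to 5.37 in DPP4- samples (median 0.426), a difference of 5.07 ± 0.498 (adjusted p = 7.8e-10). Krtdap did overlap, from 4.21 to 21.7 CPM (median 7.06) against 0 to 7.74 (median 0.190), because the DPP4- sample of female mouse 19 exceeded 9 of the 14 DPP4+ samples. Its difference was 3.18 ± 0.551 (adjusted p = 4.2e-05), and 4.58 without that mouse. The same sample held 6.93 CPM of Dmkn and 18.7 of Sbsn but 0.407 of Mrgprg. All 4 genes were called, where 7.73% of the 10614 genes tested were called higher in DPP4+ samples. For 3 genes the groups did not overlap, where 0.791% of the genes tested had every DPP4+ sample above every DPP4- sample. Since Dmkn, Krtdap and Mrgprg passed the filter on low counts only through their DPP4+ samples, the number called is not support in itself. Of 7 endothelial markers, 6 were tested in this contrast and 3 were called higher in DPP4+ samples, Pecam1 (2.08 ± 0.641), Tek (1.83 ± 0.148) and Vwf (3.91 ± 0.877). The 7 summed to 220.2 to 748 CPM in the DPP4+ samples, of which Tek held 174 to 304, and to 60.7 to 136 in the DPP4- samples, and their part in the result was not tested.

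The sex comparison in iWAT DPP4+ cells was made in the group with the most counts of each gene. The median of males exceeded that of females 6.38-fold for Dmkn, 4.40-fold for Sbsn, 6.06-fold for Krtdap and 6.08-fold for Mrgprg. In edgeR's quasi-likelihood test over 14 mice, males were higher by 2.20 ± 0.338 (SE) on the log2 scale for Dmkn (adjusted p = 0.00012), by 1.74 ± 0.225 for Sbsn (adjusted p = 1.2e-05) and by 2.33 ± 0.447 for Krtdap (adjusted p = 0.0015). For Mrgprg the value was 1.23 ± 0.494 (adjusted p = 0.143), which did not pass. Thus 3 of 4 genes were called, where 4.76% of the 10308 genes tested were called higher in males. Krtdap passed the filter on low counts only through its male samples, and the 3 genes varied together between mice, as described further on. The number called is therefore not support in itself. These 3 calls held without each of the 14 mice in turn. The Mrgprg value was past the threshold only without female mouse 20 (1.75, adjusted p = 0.026), with a range of 0.94 to 1.75.

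Exact two-sided permutation tests on mean log2 CPM over the 7 males and 7 females gave differences of 2.05 for Dmkn (p = 0.0029), 1.69 for Sbsn (p = 0.0017), 2.32 for Krtdap (p = 0.0017) and 1.71 for Mrgprg (p = 0.022). Male mouse 1 was the lowest male for the 3 neighbours and had the highest sum of the 7 endothelial markers. That sum was 1118 CPM, of which Pecam1 held 307, against 187 to 479 in the other 13 samples. In those 13, Tek alone stood at 142 to 470 CPM and Pecam1 at 36.0 or less. Without mouse 1 the male to female difference was 2.38 for Dmkn, 1.89 for Sbsn and 2.49 for Krtdap.

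A property of the libraries moved with this sex difference. Coding genes with under 1000 bases of exon were relatively higher in male iWAT DPP4+ samples, with a median difference of 0.55 on the log2 scale over 172 genes, against 0.15 over 894 genes of 1000 to 2000 bases and -0.02 over the 5803 genes of 4000 bases or more. An index per sample, the mean log2 CPM of 161 short coding genes minus that of 9111 longer ones without the 4 genes, averaged 0.584 ± 0.409 (SD, n = 7) in males and 0.0458 ± 0.229 (SD, n = 7) in females. The difference of 0.538 had p = 0.016 in a two-sided exact permutation test (adjusted p = 0.031 over 4 such tests). In pgWAT DPP4+ samples, where no sex difference of the 4 genes passed, the index differed by 0.178 (exact permutation p = 0.014, adjusted p = 0.031), and in the DPP4- samples by 0.0338 in iWAT (adjusted p = 0.67) and -0.113 in pgWAT (adjusted p = 0.50), both by exact permutation. Males 1 and 3 stood at 0.00156 and 0.0511, within the female range of -0.413 to 0.319, and the other 5 males at 0.507 to 1.00. Mice 1 and 3 were also the males with the lowest Dmkn, at 36.5 and 101 CPM, and the lowest Sbsn, at 108 and 230.2.

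With the sex mean removed, the index correlated across the 14 iWAT DPP4+ samples with Dmkn (Pearson's r = 0.778, permutation p = 0.0043, Spearman's rho = 0.789, p = 0.0013) and with Krtdap (r = 0.753, p = 0.00021, rho = 0.811, p = 0.00025). For Sbsn r was 0.671 (permutation p = 0.015, rho = 0.679, p = 0.012), and for Mrgprg 0.081 (permutation p = 0.76, rho = -0.00220, p = 1). Adjusted over the 4 genes, the Pearson p were 0.0085, 0.00084, 0.02 and 0.76 and the Spearman p 0.0027, 0.001, 0.015 and 1 for Dmkn, Krtdap, Sbsn and Mrgprg. Without the 2 samples farthest from the median index, r was 0.579 for Dmkn, 0.754 for Krtdap, 0.378 for Sbsn and 0.0128 for Mrgprg, so the relation of Sbsn rested largely on those samples.

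With the index as a covariate, a fit added after the data were seen, the male to female difference in iWAT DPP4+ cells was 0.96 ± 0.302 for Dmkn (adjusted p = 0.11), 1.13 ± 0.240 for Sbsn (adjusted p = 0.0082), 1.18 ± 0.423 for Krtdap (adjusted p = 0.19) and 0.88 ± 0.621 for Mrgprg (adjusted p = 0.67) in edgeR's quasi-likelihood test. Sbsn alone of the 4 was then called. The index and sex were related in these samples, so the shares of the difference that go with each cannot be told apart. In the pgWAT gate contrast the index changed no call, with differences of 4.19, 3.05, 3.00 and 5.52 for Dmkn, Sbsn, Krtdap and Mrgprg.

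**Figure D2:**
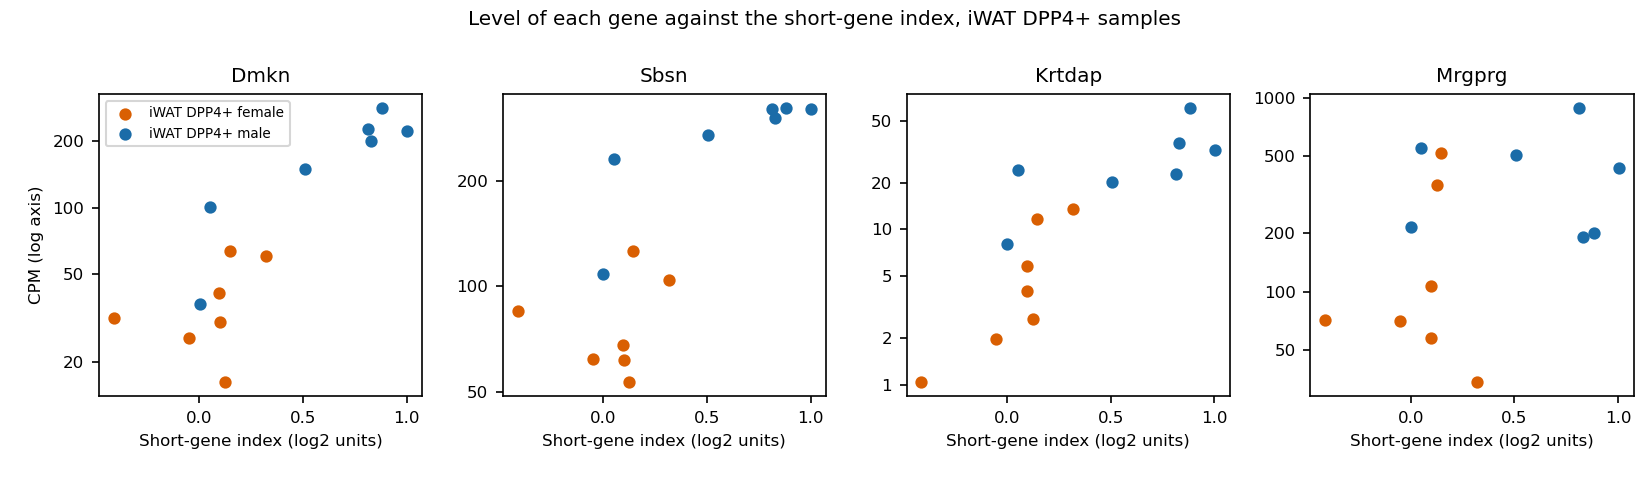
CPM of each gene on a log axis against the short-gene index in log2 units, with 1 point per mouse of the iWAT DPP4+ groups, females in orange and males in blue. Dmkn, Sbsn and Krtdap are highest in the 5 males with an index of 0.507 to 1.00, with the exception of Krtdap in male mouse 3, at 24.4 CPM, and Mrgprg shows no such order.

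With both gates in the fit, all 4 genes were called higher in males in iWAT, against 2.5% of the 10323 genes tested. Nearly all their counts in iWAT lay in the DPP4+ samples, so the number called is not support in itself. The differences were 1.82 ± 0.399 for Dmkn (adjusted p = 0.0033), 1.40 ± 0.300 for Sbsn (adjusted p = 0.0025), 2.30 ± 0.455 for Krtdap (adjusted p = 0.0010) and 1.48 ± 0.409 for Mrgprg (adjusted p = 0.028). In this fit 13 of the 16 mice gave samples of both gates, and with the gates summed per mouse only Krtdap was called (2.11, adjusted p = 0.047), against 1.99 for Dmkn (adjusted p = 0.063), 1.58 for Sbsn (adjusted p = 0.085) and 1.18 for Mrgprg (adjusted p = 0.48). The call was lost for all 4 with the index as covariate, at 0.75, 1.00, 1.48 and 1.40 and adjusted p of 0.38, 0.10, 0.077 and 0.12. In the iWAT DPP4- samples the female and male medians were 0.816 and 1.67 CPM for Dmkn and 3.66 and 3.53 for Sbsn. They were 0 and 0.589 for Krtdap and 1.60 and 7.33 for Mrgprg. In these samples 6 of 8 males lay above the highest female for Mrgprg, against 0 for Dmkn, 0 for Sbsn and 2 for Krtdap. The Mrgprg counts behind this were few, at 2 to 27 per male sample and 0 to 7 per female sample.

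In pgWAT no sex difference of the 4 genes passed the test, and edgeR's quasi-likelihood test called none of them at unadjusted p of 0.40 to 0.75. Both directions together, 10.8% of the 10614 genes tested were called there. The values were 0.34 ± 0.391 for Dmkn (adjusted p = 0.71), 0.17 ± 0.207 for Sbsn (adjusted p = 0.73), 0.20 ± 0.562 for Krtdap (adjusted p = 0.90) and 0.14 ± 0.438 for Mrgprg (adjusted p = 0.91). In the pgWAT DPP4+ samples alone, which match the iWAT DPP4+ comparison, the values were 0.71 ± 0.246 for Dmkn (unadjusted p = 0.0091, adjusted p = 0.13), 0.32 ± 0.178 for Sbsn (adjusted p = 0.47), 0.93 ± 0.376 for Krtdap (unadjusted p = 0.022, adjusted p = 0.23) and -0.23 ± 0.490 for Mrgprg (adjusted p = 0.90). None passed there either. In those samples the male median was 1.58 times the female median for Dmkn, 1.36 times for Sbsn, 1.84 times for Krtdap and 1.08 times for Mrgprg. Of the 7 males there, 3 lay above the highest female for Dmkn, 5 for Sbsn, 5 for Krtdap and 0 for Mrgprg.

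The sex by depot term asks whether the sex difference differed between iWAT and pgWAT. It was called for Sbsn, at 1.27 ± 0.368 (adjusted p = 0.047), where 2.25% of the 11678 genes tested were called. With the mouse as a replicate block, which pairs samples of the same animal, the Sbsn term was 1.37 and no longer passed (adjusted p = 0.068). In DPP4+ samples alone it was 1.42 (adjusted p = 0.014). Over all alternative fits, the Sbsn call held in 4 of 9. The terms for Dmkn (1.43 ± 0.545, adjusted p = 0.18), Krtdap (2.13 ± 0.706, adjusted p = 0.10) and Mrgprg (1.39 ± 0.638, adjusted p = 0.33) did not pass, so a difference between the depots was not shown for these. The sex by gate term in iWAT was called for none of the 4 by edgeR's quasi-likelihood test, at adjusted p of 0.34 for Dmkn, 0.46 for Sbsn, 0.96 for Krtdap and 0.70 for Mrgprg and with Dmkn alone under 0.05 before adjustment (p = 0.049), where 2.85% of the 11072 genes tested were called. Few counts in DPP4- samples lie behind that term.

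**Figure D3:**
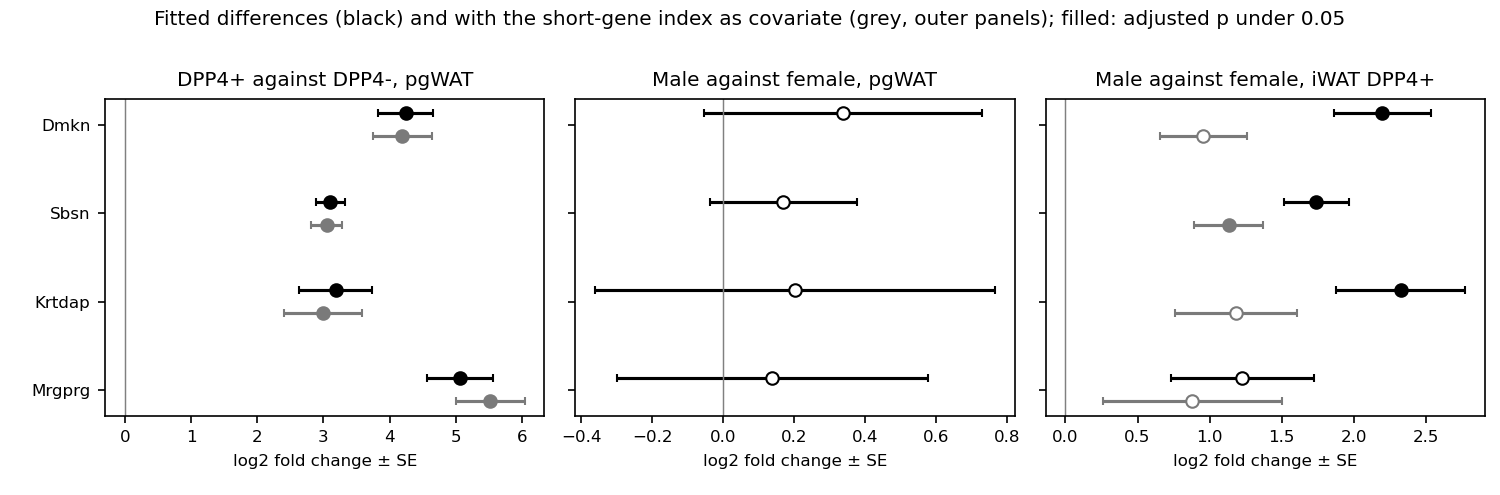
Fitted log2 fold changes ± SE for the gate contrast in pgWAT, the sex contrast in pgWAT and the sex contrast in iWAT DPP4+ samples, in black, with the short-gene index as covariate in grey in the outer panels, and filled points where edgeR's adjusted p was under 0.05. The gate values stay between 3.00 and 5.52 with the index, whereas the sex values of Dmkn, Sbsn and Krtdap in iWAT DPP4+ samples move from 1.74 to 2.33 down to 0.96 to 1.18.

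The 3 neighbours rose and fell together from mouse to mouse within the iWAT DPP4+ groups, and Mrgprg went its own way. With the sex mean removed, Dmkn and Sbsn correlated at r = 0.949 over 14 mice (permutation p = 0.00014, rho = 0.943, p = 3e-05), Dmkn and Krtdap at r = 0.812 (permutation p = 0.00033, rho = 0.868, p = 0.00018) and Sbsn and Krtdap at r = 0.729 (permutation p = 0.0045, rho = 0.754, p = 0.0031). Adjusted over the 6 pairs, the Pearson p were 0.00084, 0.00099 and 0.009 and the Spearman p 0.00018, 0.00054 and 0.0062. Within females r was 0.854, 0.796 and 0.621 and within males 0.981, 0.905 and 0.869 for the 3 pairs in that order. Without the 2 samples farthest from the median of the first gene, r was 0.862, 0.773 and 0.589.

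Mrgprg correlated with Dmkn at r = 0.060 (rho = 0.0154), with Sbsn at 0.218 (rho = 0.0725) and with Krtdap at 0.046 (rho = -0.116), with adjusted permutation p of 0.89, 0.62 and 0.89 for r and 0.96 for each rho. With the short-gene index also removed, Dmkn and Sbsn still correlated at r = 0.916 (adjusted permutation p = 0.00012), whereas Dmkn with Krtdap was at 0.547 (adjusted permutation p = 0.16) and Sbsn with Krtdap at 0.459 (adjusted permutation p = 0.24).

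**Figure D4:**
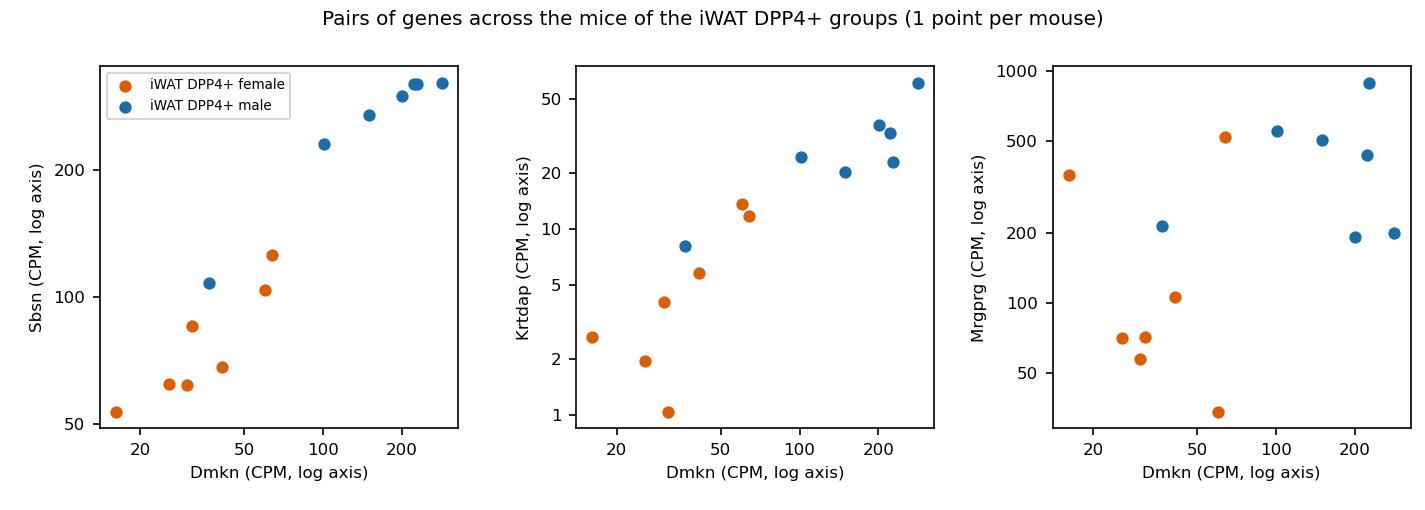
Sbsn, Krtdap and Mrgprg against Dmkn in CPM on log axes, with 1 point per mouse of the iWAT DPP4+ groups, females in orange and males in blue. Sbsn and Krtdap rise with Dmkn within both sexes, with r of 0.949 and 0.812 once the sex mean is removed, and Mrgprg does not, at 0.060.

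Repeat libraries of one sample can be set against the spread between mice. In log2 CPM the SD between libraries of a sample was 0.551 for Dmkn, 0.295 for Sbsn, 0.703 for Krtdap and 0.179 for Mrgprg, against 0.856, 0.509, 0.964 and 1.18 between mice of one sex. The libraries of a sample thus disagreed least for Mrgprg, the gene whose mice differed most. Mrgprg also had the most counts in the iWAT DPP4+ samples, at 13256. Krtdap, whose libraries disagreed most, had the fewest, at 782, and the part of count depth in this order was not tested. None of the 35 iWAT DPP4+ libraries lacked counts of any of the 4.

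The genes most like each one are given as a description, since the 57 samples share their gates and the correlations follow the gate. Among 11299 genes, Dmkn was most like Sbsn (r = 0.921), Krtdap (0.919), Anxa3 (0.918), Gpr1 (0.917) and Anxa1 (0.890). Sbsn was most like Dmkn, Anxa3 (0.915), Pi16 (0.908), Efhd1 (0.907) and Uchl1 (0.899), and Krtdap most like Dmkn, Sbsn (0.896), Uqcc2 (0.889), Sema3e (0.860) and Chst1 (0.840). Mrgprg was most like Anxa3 (0.888), Anxa1 (0.886), Gpr1 (0.886), Dmkn (0.883) and Duoxa1 (0.873). Pi16, a marker of the DPP4+ population, was not called for sex in iWAT DPP4+ cells (-0.17 ± 0.109, adjusted p = 0.43), whereas Sema3e, which encodes a secreted guidance protein, was higher in males there (2.44 ± 0.288, adjusted p = 3.7e-06) and in pgWAT (1.80 ± 0.227, adjusted p = 3.1e-07).

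Within the 14 iWAT DPP4+ samples, with the sex mean removed, the likest genes were others. Dmkn was then most like Sbsn, S100a10 (0.943), Rpl22l1 (0.938), Rpl36al (0.937) and Timm10 (0.902), and Sbsn most like Dmkn, Timm10 (0.905), Rpl19-ps11 (0.896), Igfbp6 (0.873) and Rnaseh2c (0.868). Krtdap was most like Rps27l (0.923), Rpl41 (0.893), Mrpl52 (0.886), Atp5j2 (0.871) and Uchl1 (0.868). Several of these encode ribosomal or mitochondrial proteins. The short-gene index, which correlated with Dmkn, Sbsn and Krtdap in the same samples, was not removed here. Mrgprg was most like C1galt1 (0.847), Daglb (0.845), Smad1 (0.829), Srgap1 (0.820) and Pmm1 (0.814), none of which is among the likest of the other 3 genes.

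No tested gene around the 3 neighbours was called between the gates. Of 49 other annotated genes within 250 kb of the locus, 12 passed the filter in pgWAT, with values from -0.56 to 0.39 on the log2 scale. In iWAT the 12 tested ranged from -0.85 to 0.64, again with none called. The nearest tested genes, Tmem147 and an antisense gene also named Tmem147os (ENSMUSG00000097320), had -0.07 ± 0.138 and -0.54 ± 0.442 in pgWAT. For sex in iWAT DPP4+ cells, 2 of 13 tested neighbours were called, Psenen (0.79 ± 0.244, adjusted p = 0.046) and Cox6b1 (0.65 ± 0.179, adjusted p = 0.025), both higher in males and both under the values of the 3 genes.

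**Figure D5:**
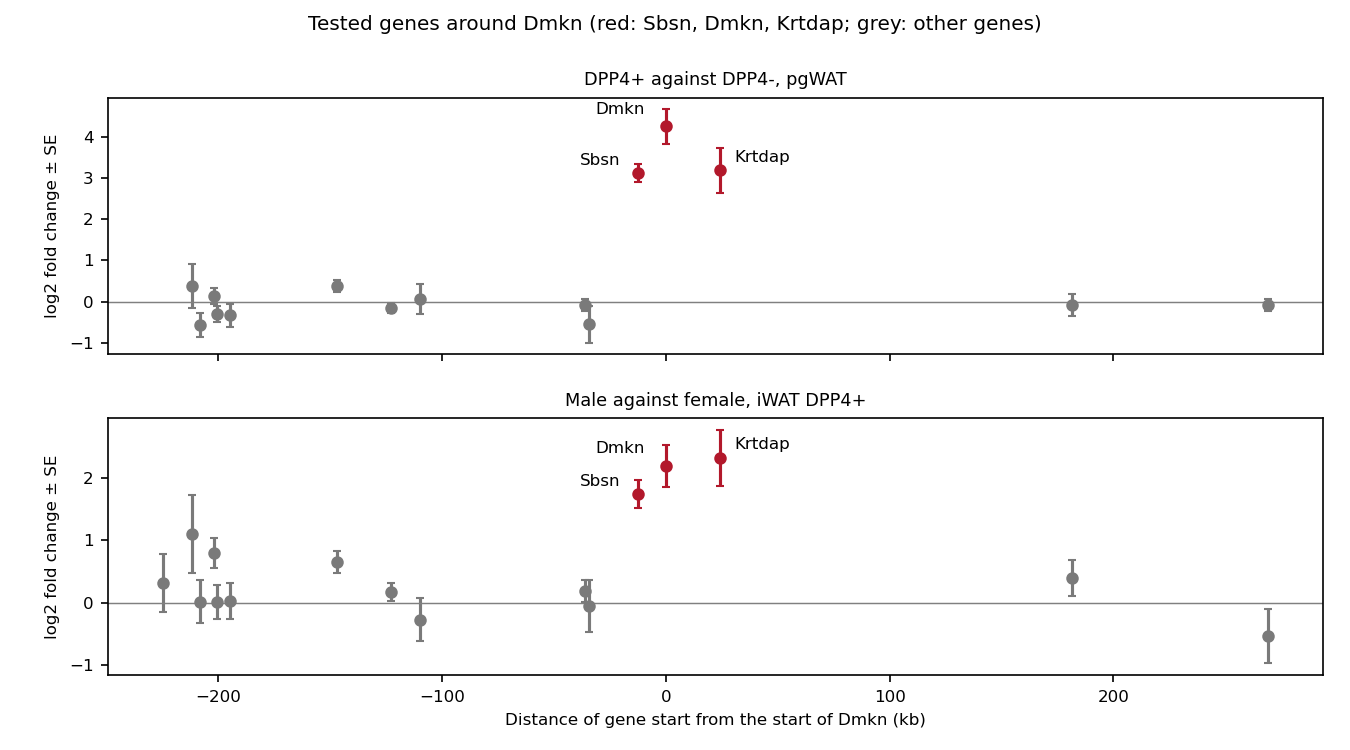
Fitted log2 fold changes ± SE of tested genes against the distance of their start from the start of Dmkn in kb, for the gate contrast in pgWAT (top) and the sex contrast in iWAT DPP4+ samples (bottom), with Sbsn, Dmkn and Krtdap in red and other genes in grey. The 3 genes stand at 3.11 to 4.25 in the top panel, where other genes lie between -0.56 and 0.39.

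Near Mrgprg the picture differed, since Mrgpre, another receptor gene of the family, was also higher in DPP4+ samples. It stood at 11.9 to 45.2 CPM in the pgWAT DPP4+ samples and at 0 to 20.7 in the DPP4- samples, a difference of 1.40 ± 0.368 (adjusted p = 0.0063). In iWAT the difference was 2.29 ± 0.387 (adjusted p = 2.7e-05), where 8.29% of the 10323 genes tested were called higher in DPP4+ samples. Within 250 kb of Mrgprg, Osbpl5 (0.36 ± 0.0939) and Dhcr7 (1.16 ± 0.274) were also called higher in the DPP4+ gate of pgWAT and Cars (-0.53 ± 0.147) lower. None of the 7 neighbours tested was called for sex in iWAT DPP4+ cells or in pgWAT.

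Of the 21 genes of the Mas-related family in the table, 3 had enough counts to be tested, Mrgprg, Mrgpre and Mrgprf. Mrgprf had medians of 46.9 to 96.7 CPM in the 8 groups and was not called between the gates (0.23 ± 0.132 in pgWAT, adjusted p = 0.30). The other 18 held 38 counts or fewer each in all 57 samples together, and 10 of them held none. Markers of the cells in which the family is best known were low in the iWAT DPP4+ samples, where 7 mast cell genes summed to 15.8 CPM or less (Cpa3 1.17 or less) and 7 sensory neuron genes to 16.4 or less (Snap25 1.03 or less).

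Most other genes of the epidermal program had few or no counts in the iWAT DPP4+ samples. Krt10 and Ppl were exceptions with counts in every one of them, and Ppl ranged from 16.9 to 69.3 CPM. Of 26 epidermal differentiation genes, Krt10 and Ppl were the only ones tested in iWAT DPP4+ cells, and 12 had no count in any of those 14 samples. Krt1, which encodes the main keratin of maturing keratinocytes with Krt10, had no count in them, and Ivl, Lor and Flg, which encode proteins of the cornified envelope and its matrix, reached 0.365, 2.00 and 0.871 CPM. Krt10 ranged from 2.92 to 16.4 CPM and was not called for sex there (0.01 ± 0.377, adjusted p = 0.99). Ppl, which encodes a cytolinker also made by other cells, was higher in males (0.71 ± 0.180, adjusted p = 0.015) but lower in the DPP4+ gate of pgWAT (-0.89 ± 0.170, adjusted p = 0.00019), where 7.34% of the genes tested were called lower in DPP4+ samples. The 26 genes summed to 31.2 to 47.0 CPM in the female and 49.3 to 74.0 in the male iWAT DPP4+ samples, and the part of this in the sex difference of Dmkn, Sbsn and Krtdap was not tested. The 13 basal keratinocyte genes summed to 3.62 to 83.4 CPM in the female (median 18.9) and 0.542 to 74.9 in the male iWAT DPP4+ samples (median 2.92), with Krt5 and Krt14 at 3.92 or less. The 1 of the 13 with enough counts to be tested was not called for sex there. In the female iWAT DPP4- samples, which also held mammary epithelial RNA, Krt5 and Krt14 reached 189 and 312 CPM. Dmkn, Sbsn and Krtdap reached 10.4, 8.80 and 1.01 there, and the source of the keratin RNA was not tested.

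Genes known as markers of the DPP4+ ASC went with the gate and, for the most part, were not higher in males. Of 15 such genes, all tested, 13 were higher in the DPP4+ gate of pgWAT, Dpp4 (4.86 ± 0.225), by which the cells were sorted, and Pi16 (2.48 ± 0.201) among them, with a list median of 2.48 against -0.01 over all genes tested. In iWAT 14 of the 15 were higher in the DPP4+ gate, where 8.29% of the genes tested were called higher, and Cd9 was lower (-1.38 ± 0.156). The list was chosen with earlier results of these data known. In the sex contrast of iWAT DPP4+ cells, 2 of the 15 were higher in males (Arl4d and Dact2) and 4 lower (Cd55, Wnt2, Sema3c and Il33), where 3.5% of the genes tested were called lower. The list median was -0.18 there, against 0.01 over all genes tested, and Dpp4 stood at -0.17 ± 0.134 (adjusted p = 0.54). Of 12 DPP4- ASC genes, 11 were lower in the DPP4+ gate of pgWAT, and in iWAT DPP4+ cells 4 were lower in males.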

How the data were processed

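RNA of sorted ASC was measured by Smart-seq2, which primes on poly(A) tails with oligo-dT. It has no molecular identifiers, so a count is of reads and not of RNA molecules. The fitted SE take in the spread between samples as well as counting error. Per the study's methods and the submitters' processing notes, reads were demultiplexed with bcl2fastq, aligned to mm10 with STAR and quantified per gene with Salmon. Tool versions and the strand setting were not stated for this protocol. The deposited values are whole-number counts per gene and library, as the authors made them. A second deposited table of means over libraries was not used.

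Libraries held 100026 to 2330623 counts (median 848774), and 10 were under 250000. A locus of ribosomal RNA type took 25.1% to 47.0% of the counts of a sample. The 1 to 3 libraries of each mouse, depot and gate were summed, and no pair of libraries differed by less than sampling noise. Replicates are mice. CPM is per 1000000 of all counts of a sample.

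The fits used edgeR 4.0.16 in R 4.3.3 (TMM, filterByExpr, quasi-likelihood test, Benjamini-Hochberg over all genes tested, adjusted p under 0.05), and were tested on simulated data. Errors of fold changes are the fold change over the square root of F. Permutation tests used scipy 1.17.1, with 3432 exact splits or 100000 resamples. DESeq2 1.42.0, RLE size factors, totals alone, no filter, libraries under 250000 left out, the deepest library alone, the mouse as a block and leaving out each mouse were alternatives, and the short-gene index was added after the data were seen. Sequences are from RefSeq on GRCm38.p6, and 53431 of 53468 gene identifiers matched the annotation.

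The members and gene lists were chosen with earlier results of these data known. Named genes were the 4 members, the 5 genes most like each by Pearson's r of log2 CPM (prior count 2, at least 10 counts in at least 7 samples, predicted genes left out), genes within 250 kb, and list genes. The replicate number is the mouse, so samples of the same number come from the same animal. The median correlation of deviations was 0.0332 between gates in iWAT for the same mouse against -0.00758 for other mice, and 0.0939 against -0.0148 in pgWAT. Between depots it was 0.0405 against -0.00176 in DPP4+ and 0.0356 against -0.00505 in DPP4- samples.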

Additional observations from a re-analysis of the deposited data

Results flagged for a closer look

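Of 32 groups of samples tested for a value far from the rest, 6 had one by Dixon's criterion. Its rate of about 1 in 20 by chance holds for normally distributed values. All but the Sbsn value lie in DPP4- groups with few counts, so the number of such groups cannot be set against that rate. Dmkn stood at 10.4 CPM (10 counts) in the iWAT DPP4- sample of female mouse 17, against 0 to 1.01 in the others. The pgWAT DPP4- sample of female mouse 19 held 6.93 CPM of Dmkn (17 counts, others 0 to 0.880) and 7.74 CPM of Krtdap (19 counts, others 0 to 0.440). Sbsn was at 108 CPM in the iWAT DPP4+ sample of male mouse 1, against 230.2 to 322 in the other males. Krtdap at 1.01 CPM in the iWAT DPP4- sample of female mouse 24 was a single count, with 0 in the other samples. Mrgprg stood at 2.81 CPM (5 counts) in the pgWAT DPP4- sample of female mouse 17, against 0 to 0.578.

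The sex by depot term of Sbsn was called, at 1.27 on the log2 scale in edgeR's test of the interaction (adjusted p = 0.047). The call held in 4 of 9 alternative fits, and the mouse as a block was among those that lost it.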

How the results depend on the processing

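Mean levels rose when the ribosomal RNA locus was left out of the totals, in iWAT DPP4+ samples to 64.0 (female) and 282 (male) CPM for Dmkn, 134 and 431 for Sbsn and, in males, 47.3 for Krtdap, and in male iWAT DPP4- samples to 12.4 for Mrgprg, since the totals are then smaller.

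The sex difference of Mrgprg in iWAT DPP4+ samples passed in edgeR's test with no filter on low counts (1.23, adjusted p = 5.4e-11). The estimate hardly moved there and its SE fell from 0.494 to 0.167, so the small p rests on that lower error. The exact permutation of mean log2 CPM gave 1.71 (p = 0.022, not adjusted over genes), and leaving out each mouse gave 0.94 to 1.75. With the short-gene index, added after seeing the data, the call for sex was lost for Dmkn (0.96) and Krtdap (1.18), and over both gates for Dmkn (0.75), Sbsn (1.00), Krtdap (1.48) and Mrgprg (1.40). With gates summed per mouse, Dmkn (1.99), Sbsn (1.58) and Mrgprg (1.18) did not pass in iWAT. The sex by depot term of Sbsn did not pass with RLE factors (1.25), totals alone (1.17), the deepest library (1.36), the replicate block (1.37) or the index (0.95). Among the comparisons tested on the 4 genes, the mouse as a replicate block changed no other call.

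Values that turned sign had not passed before, namely the sex difference in pgWAT of Mrgprg in DPP4+ samples alone (-0.23) and of Krtdap with the index (-0.0096), the sex by gate term of Krtdap with the index (-0.82), and the correlations of Mrgprg with Krtdap (-0.080 with the deepest library, -0.022 with the index) and with Dmkn (-0.0039 with the index). With the index removed, Dmkn and Krtdap correlated at 0.547 and Sbsn and Krtdap at 0.459, and neither passed.

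Genes called for sex in iWAT DPP4+ samples numbered 852, and 1291 with no filter, 552 with the deepest library and 281 with the index. For sex in iWAT the 452 became 1382 with no filter, 721 with DESeq2, 241 with the deepest library and 267 with gates summed. In pgWAT the 1143 became 1836 with no filter, 544 with the deepest library and 417 in DPP4+ samples alone. For sex by depot the 263 became 698, 163 and 97 under the same settings. For sex by gate the 315 became 771 with totals alone, 781 with no filter, 599 with DESeq2, 91 with the deepest library and 150 with the index. For the gate the deepest library gave 844 of 1599 in pgWAT and 943 of 1594 in iWAT, where no filter gave 2783. With totals alone the split of higher against lower calls moved from 258 and 194 to 165 and 374 for sex in iWAT, from 139 and 124 to 59 and 166 for sex by depot, and from 166 and 149 to 704 and 67 for sex by gate, with medians over all genes of -0.19, -0.16 and 0.48. The cause of these shifts was not tested. Krtdap could not be tested with the deepest library alone in several comparisons, and its few counts in DPP4- samples limit the sex by gate term.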
